A study of Mus musculus with 8 samples.

Results

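The mRNAs of 10 genes that encode the subunits of NF-kB and the IkB proteins were followed in mouse tibialis anterior (TA) muscles with knockdown of *Uba1*. The genes were chosen by symbol and for their roles, with earlier results of these data known, and all 10 are among the 41709 genes of the deposited RNA-seq table. They comprise 5 subunits (*Rela*, *Rel*, *Relb*, *Nfkb1* and *Nfkb2*), 3 classical IkB inhibitors (*Nfkbia*, *Nfkbib* and *Nfkbie*) and 2 IkB proteins that act in the nucleus (*Nfkbiz* and *Bcl3*). All muscles came from male C57BL/6J mice that were electroporated at 3 months of age and sacrificed 7 days later. In the control group (siNT, n = 4 muscles), the TA of one leg received 1500 pmol of a non-targeting (NT) siRNA pool, and in the knockdown group (siUBA1, n = 4 muscles) the contralateral TA received the same amount of a pool of 4 siRNA species against *Uba1*. The titles mark every siNT muscle with R and every siUBA1 muscle with L, so leg and siRNA cannot be told apart, and equal replicate numbers mark the legs of a mouse (pairs 1 to 4). The titles name UBA1 in all 4 knockdown muscles and set the groups here, whereas the treatment tags change with the replicate, from UBA1 in the first to UBA2, UBA3 and UBA4 in the others. Electroporation reaches a muscle with all of its cell types, and in a whole muscle fewer cells of a type and less RNA per cell cannot be told apart.

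NF-kB is a dimer of subunits that is held in the cytoplasm by the classical IkB inhibitors. Signals from cytokine receptors activate the IkB kinase complex, which phosphorylates the inhibitor and marks it for ubiquitination by an SCF ligase and degradation by the proteasome, so that the dimer enters the nucleus. Ubiquitin is needed at several of these steps, including the assembly of receptor complexes and the processing of the precursors p105 (*Nfkb1*) and p100 (*Nfkb2*), and UBA1 is the main enzyme that activates ubiquitin. Several genes of the family, *Nfkbia* above all, are themselves targets of NF-kB and form feedback loops. In skeletal muscle, NF-kB activity is known for its part in inflammation and atrophy.

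Levels are given as TPM, the number of transcripts among 1000000, a measure per transcript length that sums to 1000000 in each muscle and keeps no total of reads. Changes are log2FC of siUBA1 versus siNT on the log2(TPM + 1) scale, which understates the change of genes with few TPM, and were tested with limma on 11530 genes, those that reached 1 TPM in 4 muscles or more. All 10 members were tested, and 9 were at 1 TPM or more in all 8 muscles, the exception being *Nfkbie* in siUBA1 replicate 2. The targeted *Uba1* was at 59.0 to 63.6 TPM in the siNT muscles and at 18.1, 6.77, 15.8 and 23.1 TPM in siUBA1 replicates 1 to 4, a log2FC of -1.98 (SE 0.290, adjusted p = 0.0527 from limma, and 0.0278 with the pair as a block). The median log2FC of all genes tested was 0.11 and became 0.0016 with median-ratio scaling, so a member near 0 lies slightly below most genes. Myofiber markers summed to 141883 to 157262 TPM in siNT and to 114631 to 157983 TPM in siUBA1 muscles, as is usual for muscle tissue. The muscle of siUBA1 replicate 2 stood apart, with the highest mitochondrial share of the TPM (50.3%, against 39.9% to 46.5% in the other 7) and the lowest sums of myofiber and macrophage markers.

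With *Uba1* siRNAs, the mRNAs of 4 of the 5 IkB proteins and of 2 of the 5 subunits were lower, in all 4 pairs and without overlap between the groups. These were *Nfkbiz*, *Bcl3*, *Nfkbie*, *Nfkbia*, *Rel* and *Rela*, in order of the size of their log2FC. *Nfkbie* came before *Bcl3* with a pseudocount of 0.1 in place of 1 and without siNT replicate 1 (-0.93 against -0.85). The order also changed when some pairs were left out. *Relb*, *Nfkb1*, *Nfkb2* and *Nfkbib* overlapped between the groups. Among all genes tested, 1.01% were lower without overlap. Groups of 4 against 4 without overlap have by construction the smallest p of a two-sided exact permutation test without pairing, 0.0286, so that test adds nothing for these 6 genes.

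Across all genes, adjustment left 0 of the 10 members past an adjusted p of 0.05 in limma without pairing, where 0.0260% of the genes tested passed toward lower values. At an unadjusted P under 0.05, 6 members were lower and 0 higher, against a background of 1.98% lower and 16.0% higher. Median-ratio scaling turned this background to 6.18% lower and 4.43% higher, and 7 members were then lower, *Nfkb2* among them, and 0 higher. With the pair as a block, 7 members were lower at this threshold, *Nfkb2* being added, against 2.80% of all genes. When a log2FC under -0.58 was required as well, without pairing, 4 members met this criterion, all IkB proteins, against 0.833% of all genes. With the pair as a block, 1 member passed the adjusted p, *Bcl3*, against 0.304% of all genes called lower. In the Kruskal-Wallis test, the same 6 members were lower at an unadjusted P of 0.0209 (from its chi-square approximation, which goes below the exact permutation p), against 1.71% of all genes lower at a P under 0.05, and 0 members and 0 genes passed with adjustment. Without siUBA1 replicate 2 and without pairing, the 6 lower members had log2FC values from -1.28 to -0.28, and *Bcl3* alone passed the adjusted p. The median log2FC of the 10 members over all muscles was -0.39, beside 0.11 for all genes tested.

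**Figure D1:**
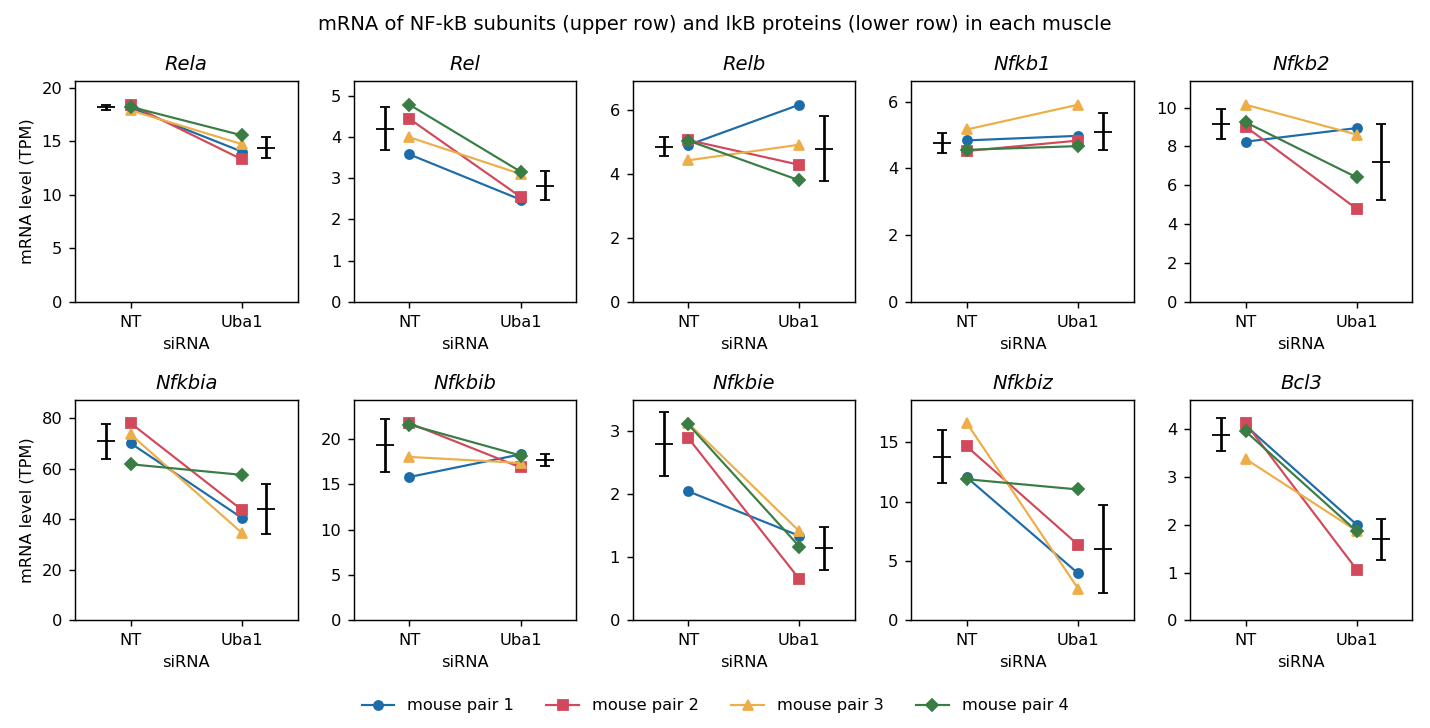
The y-axes give mRNA levels in TPM, each panel with its own scale from 0, and lines join the NT and *Uba1* muscles of a mouse (4 pairs). Black marks show the mean and SD (n = 4 muscles). All 4 lines slope down for *Rela*, *Rel*, *Nfkbia*, *Nfkbie*, *Nfkbiz* and *Bcl3*, and the line of pair 4 is almost flat for *Nfkbia* and *Nfkbiz*.

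In the control muscles, *Nfkbia* was the most abundant member and *Nfkbie* the least. *Nfkbia* was at 70.9 ± 6.88 TPM (SD, n = 4), above 92.6% of the genes tested and above every other member in each muscle. *Nfkbib* (19.3 ± 2.88 TPM) and *Rela* (18.2 ± 0.221 TPM) followed and overlapped with each other. *Nfkbiz* (13.8 ± 2.26 TPM) and then *Nfkb2* (9.16 ± 0.783 TPM) were each apart from their neighbours in this order. *Relb* (4.85 ± 0.296 TPM), *Nfkb1* (4.77 ± 0.300 TPM), *Rel* (4.20 ± 0.525 TPM) and *Bcl3* (3.88 ± 0.345 TPM) overlapped, each with the next. *Nfkbie* was below all of these, at 2.79 ± 0.508 TPM.

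*Rela* encodes p65, the subunit with a strong transactivation domain that pairs with p50 in the most common dimer, with its gene on chromosome 19 (5687493 to 5698161, plus strand, in GRCm39 as for all positions here). It was at 18.1, 18.4, 17.9 and 18.2 TPM in siNT replicates 1 to 4 and at 14.0, 13.3, 14.7 and 15.6 TPM in the siUBA1 muscles of the same mice. The control muscles were nearly alike, and each knockdown muscle was below all of them. The mean was 20.7% lower, a log2FC of -0.32 (SE 0.0634, adjusted p = 0.120 from limma). *Rel* encodes c-Rel, a subunit best known from lymphocytes, and lies on chromosome 11 from 23686847 to 23721264 (minus strand). Its level was 3.58, 4.44, 3.99 and 4.78 TPM in the siNT muscles and 2.48, 2.54, 3.10 and 3.16 TPM in the siUBA1 muscles. Each knockdown muscle was below every control, with a mean 32.8% lower and a log2FC of -0.44 (SE 0.1002, adjusted p = 0.139 from limma). With the block, the adjusted p from limma was 0.0803 for *Rela* and 0.0658 for *Rel*, and with the block and median-ratio scaling both passed (0.0489 and 0.0370).

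The other subunits did not separate the groups. *Nfkb1*, the source of p105 and p50 (chromosome 3, 135290264 to 135397742, minus strand), ranged from 4.52 to 5.17 TPM in siNT and from 4.67 to 5.91 TPM in siUBA1 muscles. It was higher in 4 of 4 pairs, by a log2FC of 0.076 with a 95% confidence interval from -0.11 to 0.26 (adjusted p = 0.618 from limma), and its sign turned with median-ratio scaling, to -0.025. *Relb*, a subunit of the noncanonical branch (chromosome 7, 19339017 to 19363425, minus strand), ranged from 4.42 to 5.05 TPM and from 3.79 to 6.16 TPM. Its log2FC of -0.031 had an interval from -0.30 to 0.24 (adjusted p = 0.896 from limma), and it was lower in 2 of 4 pairs. *Nfkb2*, the source of p100 and p52 (chromosome 19, 46292759 to 46303812, plus strand), was at 8.24, 9.02, 10.1 and 9.24 TPM in the siNT muscles and at 8.94, 4.79, 8.61 and 6.40 TPM in the siUBA1 muscles. Replicates 2 and 4 of siUBA1 were below every control and replicate 1 was above its contralateral muscle. The log2FC of *Nfkb2* was -0.34 with an interval from -0.71 to 0.025 (adjusted p = 0.301 from limma). With the pair as a block the interval was from -0.66 to -0.022 and so left out 0, while the adjusted p was 0.180 from limma. With the block and without pair 2, 3 or 4 the unadjusted P of limma was no longer under 0.05 (0.144, 0.0655 and 0.126). Without pair 1 this P was 0.0033, with a log2FC of -0.49. In the fit without pairing, *Nfkb2* was at -0.45 with median-ratio scaling (unadjusted P = 0.0062, adjusted p = 0.243, both from limma). Its unadjusted P from limma was also under 0.05 with quantile normalization (0.0067) and without mitochondrial genes (0.0207). The log2FC of *Nfkb2* was -0.19 without siUBA1 replicate 2 and without pairing (adjusted p = 0.367 from limma). The intervals without the block include changes as large as that of *Rela* for *Nfkb2*, but not for *Nfkb1*. For *Relb* the lower bound (-0.30) was close to the log2FC of *Rela* (-0.32), on a scale that understates genes with few TPM. With a pseudocount of 0.1, *Relb* was at -0.040 (SE 0.141) and *Rela* at -0.33, so such a change is not excluded for *Relb*.

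Among the classical inhibitors, *Nfkbia* encodes IkBα, which is degraded and resynthesized within a cycle of NF-kB activation, and lies on chromosome 12 from 55535332 to 55539432 (minus strand). It was at 70.1, 78.1, 73.6 and 61.8 TPM in siNT replicates 1 to 4 and at 40.5, 43.7, 34.6 and 57.6 TPM in siUBA1 replicates 1 to 4. Replicates 1 to 3 of siUBA1 were far below the controls, whereas replicate 4 was just below the lowest control, which came from the same mouse. The mean was 37.8% lower, a log2FC of -0.69 (SE 0.143, adjusted p = 0.129 from limma, and 0.0803 with the block). Without siUBA1 replicate 4 it passed, with a log2FC of -0.83 (adjusted p = 0.0266 from limma, in a range of 0.0266 to 0.350 when 1 muscle was left out).

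The region before *Nfkbia* is printed here because binding of NF-kB to its own inhibitor's promoter is the textbook case of feedback in this family. It covers the 300 bases before the start of the canonical transcript in GENCODE M39, at chr12:55539433-55539732 of GRCm39 (minus strand, shown 5′ to 3′ in the direction of transcription). Capitals mark the matches to the kB motif, searched on both strands.

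*Nfkbia* promoter: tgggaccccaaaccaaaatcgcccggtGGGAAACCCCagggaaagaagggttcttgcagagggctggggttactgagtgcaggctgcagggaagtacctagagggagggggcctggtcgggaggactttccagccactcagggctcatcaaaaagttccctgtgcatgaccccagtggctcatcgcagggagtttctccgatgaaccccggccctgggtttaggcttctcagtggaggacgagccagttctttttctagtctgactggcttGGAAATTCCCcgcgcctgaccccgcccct

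The matches lie 273 to 264 and 29 to 20 bases before the start, the first reading as the motif on both strands and the other on the opposite strand. In the same 300 bases, 4 of the 10 members had a match, and 9.95% of the 10856 protein-coding genes tested did. The single matches of the other members are shown to compare their letters with those of *Nfkbia*, each in the direction of transcription of its gene.
*Rel*: GGGGGTCCCC
*Relb*: GGGGTTTTCC
*Nfkbie*: GGGGGATTCC
These matches lie 276 to 267 bases before the start of *Rel*, 37 to 28 bases before *Relb* and 86 to 77 bases before *Nfkbie*. Of the 4 members with a match, *Rel*, *Nfkbia* and *Nfkbie* were lower without overlap and *Relb* was not. *Rela*, *Nfkbiz* and *Bcl3* were lower without a match in this window, which for *Nfkbiz*, *Bcl3* and *Nfkbib* lies inside the gene, since the canonical transcript starts there. A match describes letters only, and other regions were not searched.

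*Nfkbie* encodes IkBε, an inhibitor of Rela and c-Rel dimers, and lies on chromosome 17 from 45866585 to 45874661 (plus strand). It was at 2.04, 2.88, 3.12 and 3.10 TPM in the siNT muscles and at 1.34, 0.651, 1.41 and 1.17 TPM in the siUBA1 muscles. The highest knockdown muscle was below the lowest control, and these came from different mice. The mean was 59.1% lower, a log2FC of -0.83 (SE 0.145, adjusted p = 0.0789 from limma, and 0.0560 with the block). *Nfkbie* passed with median-ratio scaling or quantile normalization, each with a log2FC of -0.91. With a pseudocount of 0.1 its log2FC was -1.25, as the pseudocount of 1 is large beside its level. *Nfkbib* encodes IkBβ, which is degraded more slowly than IkBα, and lies on chromosome 7 from 28457486 to 28466937 (minus strand). It ranged from 15.8 to 21.7 TPM in siNT and from 16.8 to 18.3 TPM in siUBA1 muscles. The knockdown muscles fell inside the range of the controls, with a log2FC of -0.11 and an interval from -0.34 to 0.12 (adjusted p = 0.561 from limma). The interval for *Nfkbib* does not reach the log2FC of *Nfkbia* or *Nfkbie*.

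The nuclear IkB proteins bind p50 or p52 dimers on DNA and adjust transcription of a subset of NF-kB targets. *Nfkbiz* encodes IkBζ, which is induced by Toll-like and interleukin-1 receptors and is needed for genes such as *Il6*, and lies on chromosome 16 from 55631738 to 55659262 (minus strand). It was at 12.0, 14.6, 16.6 and 11.9 TPM in the siNT muscles and at 3.96, 6.36, 2.67 and 11.02 TPM in the siUBA1 muscles. Its knockdown muscles spread widely, from replicate 3 to replicate 4, which almost reached the lowest control. The mean was 56.5% lower, and the log2FC of -1.21 had a wide error (SE 0.316, adjusted p = 0.157 from limma, and 0.0974 with the block). This log2FC was the largest of the 10 on this scale, but as a percentage of the mean TPM of the controls *Nfkbie* was lower by more (59.1% against 56.5%), and with the block and without pair 3 *Nfkbiz* was at -0.86 and *Bcl3* at -0.95. Without siUBA1 replicate 4 *Nfkbiz* passed, with a log2FC of -1.52 (adjusted p = 0.0401 from limma, in a range of 0.0401 to 0.350 when 1 muscle was left out).

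*Bcl3* encodes an atypical IkB protein that can activate transcription with p50 or p52 and was first found in leukemia, and lies on chromosome 7 from 19541553 to 19557570 (minus strand). It was at 4.07, 4.12, 3.37 and 3.95 TPM in the siNT muscles and at 2.00, 1.06, 1.87 and 1.86 TPM in the siUBA1 muscles. Each knockdown muscle was below every control, and replicate 2 was the lowest. The mean was 56.3% lower, a log2FC of -0.87 (SE 0.126, adjusted p = 0.0527 from limma). *Bcl3* ranked 12 of the 11530 genes by unadjusted P, first among the members. It passed with the block (adjusted p = 0.0405 from limma), with median-ratio scaling, with quantile normalization and without mitochondrial genes, at adjusted p values down to 0.0185. With the block and without pair 3 or pair 4 it did not (0.137 and 0.109), and with 1 muscle left out of the fit without pairing the adjusted p ranged from 0.0433 to 0.227.

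**Figure D2:**
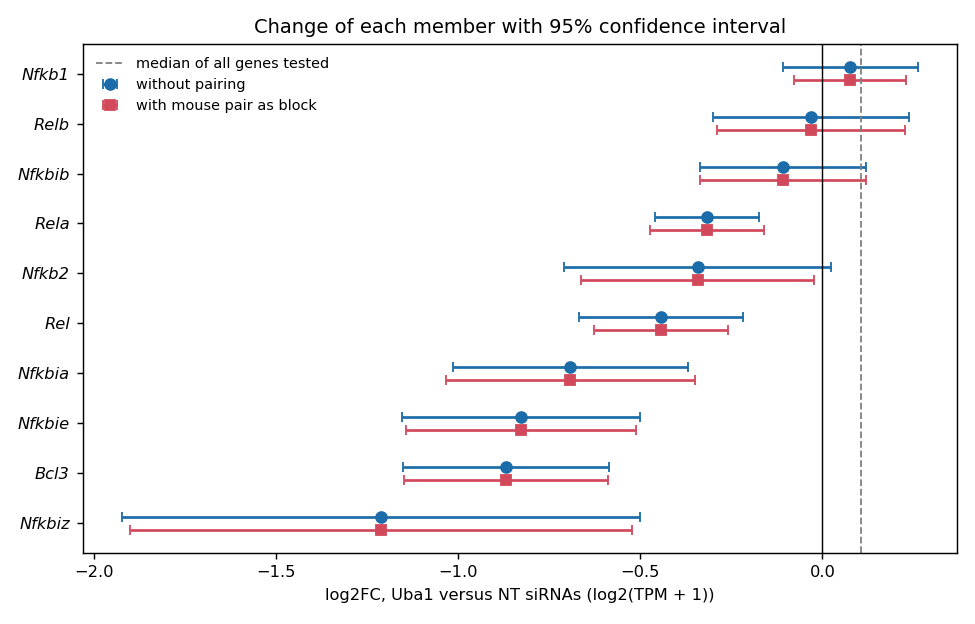
The x-axis gives the log2FC of *Uba1* versus NT siRNAs on the log2(TPM + 1) scale for each of the 10 members. Circles are fits without pairing and squares fits with the mouse pair as a block, bars are 95% confidence intervals of single genes, and the dashed line is the median of all genes tested (0.11). The intervals of *Rela*, *Rel*, *Nfkbia*, *Nfkbie*, *Bcl3* and *Nfkbiz* lie below 0 in both fits.

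The 6 lower members differed in how the pairs behaved. *Nfkbia* was at 57.8%, 56.0%, 47.0% and 93.2% of its contralateral level in pairs 1 to 4, and *Nfkbiz* at 32.9%, 43.5%, 16.1% and 92.7%. These IkB genes were thus near the control level in pair 4 and lowest in pair 3. *Bcl3* was at 49.1%, 25.7%, 55.4% and 47.1%, and *Nfkbie* at 65.4%, 22.6%, 45.1% and 37.6%. Both were lowest in pair 2 and under 50% of the control in pair 4. *Rel* (69.3%, 57.3%, 77.7% and 66.0%) and *Rela* (77.3%, 72.2%, 82.4% and 85.4%) were also lowest in pair 2. *Uba1* itself was at 29.8%, 11.5%, 24.8% and 39.1%, lowest in pair 2 and highest in pair 4. Over the 8 muscles, the deviations from the group means of *Nfkbia* and *Nfkbiz* had a Pearson r of 0.94, the highest among the 45 pairs of members, whereas r was -0.063 for *Nfkbia* with *Bcl3* and -0.28 for *Nfkbiz* with *Bcl3*. The muscles share the composition of their libraries, and with this number the values are a description.

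Immediate-early genes, which respond within minutes to handling and injury, moved with the first of these patterns. The summed level of the 15 genes of that list, *Fos* and *Egr1* among them, ranged from 1483 to 2666 TPM in siNT and from 901 to 1949.8 TPM in siUBA1 muscles. It was at 73.6%, 53.7%, 50.8% and 110% of the contralateral level in pairs 1 to 4, highest in pair 4 as were *Nfkbia* and *Nfkbiz*. Of the 15 genes, 14 had a log2FC below 0, with a median of -0.54, 6 were lower at an unadjusted P under 0.05 and 5 had a log2FC under -0.58 as well, beside 1.98% and 0.833% of all genes. *Atf3*, a stress-induced transcription factor and the gene of the list that passed with the block, departed from the sum, at 18.9%, 14.8%, 17.8% and 35.6% of the contralateral level in pairs 1 to 4. The part of handling in the result was not tested.

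**Figure D3:**
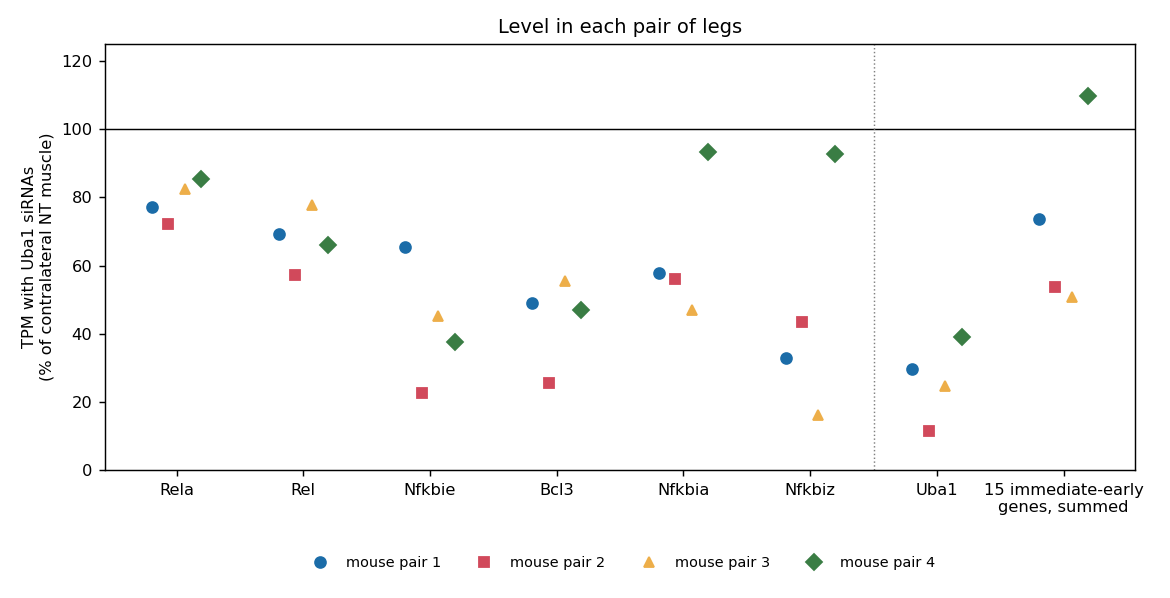
The y-axis gives the TPM of each siUBA1 muscle as a percentage of the contralateral siNT muscle, and each symbol is 1 of the 4 mouse pairs. *Nfkbia* and *Nfkbiz* stand at 93.2% and 92.7% in pair 4, where *Bcl3*, *Nfkbie*, *Rel* and *Rela* stand between 37.6% and 85.4% and the summed immediate-early genes at 110%.

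The balance of inhibitors and subunits was compared as a description, without a test. The summed TPM of the classical inhibitors was 92.9 ± 7.41 in siNT and 62.9 ± 9.97 in siUBA1 muscles (SD, n = 4 each), and that of the subunits 41.1 ± 0.979 and 34.3 ± 3.43. Both sums separated the groups. The ratio of inhibitor to subunit mRNA was 2.21, 2.48, 2.28 and 2.07 in the siNT muscles and 1.64, 2.06, 1.43 and 2.29 in the siUBA1 muscles. It was lower in 3 of 4 pairs and higher in pair 4, so the groups overlapped. The ratio of *Nfkb1* to *Rela* mRNA was 0.263 ± 0.0196 in siNT and 0.355 ± 0.0417 in siUBA1 muscles, higher in 4 of 4 pairs and without overlap. This ratio is formed within each muscle, so a scale factor per muscle leaves it as it is, which is not so for quantile normalization. It carries the difference of *Rela*, which was lower without overlap by itself. Also computed were *Nfkbia* to *Rela*, *Nfkbia* as a share of the classical inhibitors and *Rela* as a share of the subunits. These overlapped between the groups.

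Genes that act before NF-kB were compared by the same thresholds. Tested were 76 genes for ligands, receptors, adaptors, IkB kinases and upstream kinases with their partners, ubiquitin ligase parts and other IkB-like proteins. Of these, 0 passed the adjusted p in limma or the Kruskal-Wallis test. At an unadjusted P under 0.05 in limma, 4 were lower and 10 higher, beside 1.98% and 16.0% of all genes. With median-ratio scaling, 12 were lower and 5 higher, beside 6.18% and 4.43% of all genes. Their median log2FC was 0.11, as over all genes, and 18 of the 76 were below 0, or 37 with median-ratio scaling. An unadjusted P under 0.05 and a log2FC under -0.58 were found for 2 of the 76, the ligand *Tnf* and the ubiquitin-editing feedback inhibitor *Tnfaip3* (A20), which is also a target of NF-kB. *Tnf* was at 2.82 ± 1.23 TPM in siNT and at 1.44 ± 0.759 TPM in siUBA1 muscles (log2FC -0.65, SE 0.252, adjusted p = 0.238 from limma), lower in 4 of 4 pairs but with overlap. *Tnfaip3* was at 10.3 ± 2.49 and 3.86 ± 1.25 TPM (log2FC -1.23, SE 0.194, adjusted p = 0.0644 from limma), lower in 4 of 4 pairs, and at 71.7% of the control in pair 4 against 26.9% to 34.0% in the others.

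*Nfkbid*, which encodes another nuclear IkB protein (IkBNS), was at 2.16 ± 0.625 and 1.38 ± 0.565 TPM, with overlap, lower in 3 of 4 pairs and at 128% of the control in pair 4 (log2FC -0.42, adjusted p = 0.276 from limma). It was picked after values were seen, as 1 of the 4 genes lower at an unadjusted P under 0.05. Besides *Tnf* and *Tnfaip3*, these included the kinase gene *Map3k8* (log2FC -0.40, adjusted p = 0.168 from limma), lower in 4 of 4 pairs but with overlap. By role, outside the group of *Nfkbid*, the median log2FC was 0.091 for 19 genes of the IkB kinase complex and of upstream kinases with their partners. It was 0.17 for 9 receptors, 0.13 for 8 ligands and 0.11 for 26 adaptors and ubiquitin regulators. For 12 parts of the ubiquitin ligases that act on IkB, p105 and p100 it was 0.099. None of these groups had a gene past the adjusted p in limma, with 1, 0, 1, 1 and 0 genes lower and 3, 1, 0, 5 and 1 higher at an unadjusted P under 0.05. The 3 subunits of the IkB kinase complex were picked for their role after values were seen. *Chuk* (IKKα) was at 6.005 ± 0.310 and 7.35 ± 0.258 TPM (log2FC 0.25, or 0.15 with median-ratio scaling, SE 0.0637, adjusted p = 0.149 from limma), higher in 4 of 4 pairs without overlap. Of all genes, 16.0% were higher at an unadjusted P under 0.05 in limma, and the share higher without overlap was not counted. *Ikbkb* (IKKβ) was at 2.35 ± 0.248 and 2.63 ± 0.439 TPM and *Ikbkg* (NEMO) at 5.53 ± 0.616 and 6.35 ± 0.189 TPM, with overlap in both. The log2FC of all 3 was above 0, as for 81.8% of all genes tested. It stayed above 0 with median-ratio scaling, as for 50.7% of all genes.

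Downstream, the 32 tested classical targets outside the family had a median log2FC of -0.62, and 15 passed the same thresholds toward lower values, beside 0.833% of all genes, and 0 toward higher values. At an unadjusted P under 0.05 alone, 16 were lower and 2 higher, or 19 and 0 with median-ratio scaling. In limma without pairing, 3 passed the adjusted p (0.0260% of all genes did toward lower values), *Ccl2* (a monocyte chemokine, log2FC -3.00), *Icam1* (a leukocyte adhesion molecule, -1.73) and *Irf1* (an interferon regulatory factor, -0.95). With the block, 7 passed, beside 0.304% of all genes. The list holds genes known from earlier results of these data to be lower and is no independent evidence of a direction.

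**Figure D4:**
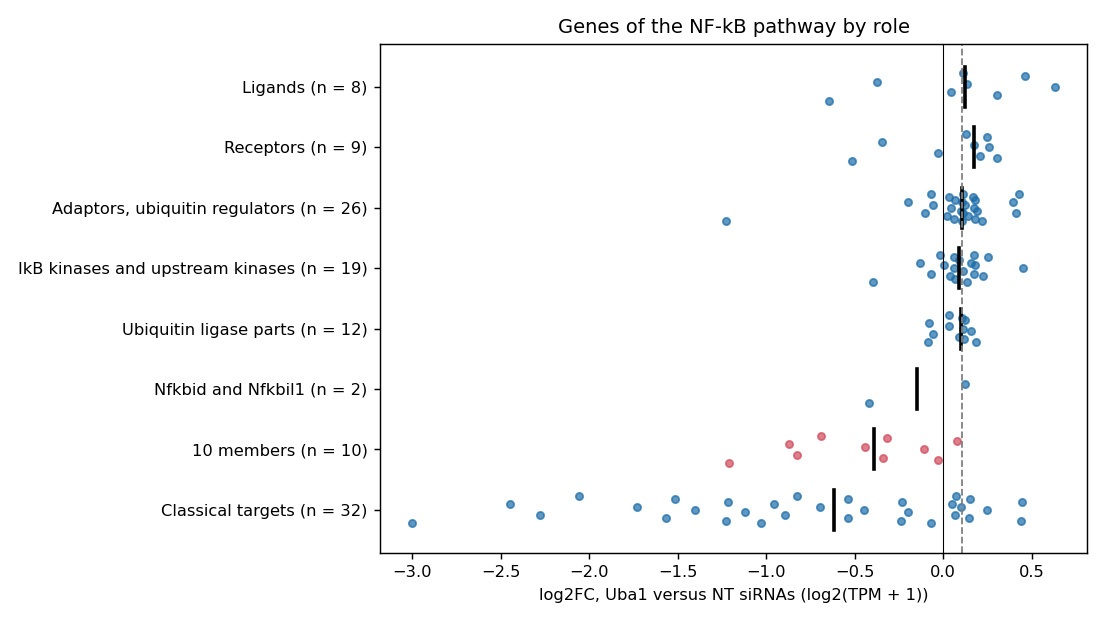
Each point is the log2FC of a tested gene of the NF-kB pathway (x-axis, log2(TPM + 1) scale), grouped by role with the number of genes, and black bars are medians. The dashed line marks the median of all genes tested (0.11). The medians of the ligands, receptors, adaptors, kinases with their partners and ligase parts lie near that line. Those of the 10 members (-0.39) and of the targets (-0.62) lie below it.

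By Pearson r of the log2 values over the 8 muscles, the genes most like *Bcl3* were *Fam107b* (0.98), *Uba1* (0.98), *Procr* (0.97), *Selp* (0.97) and *Icam1* (0.97), all with a log2FC below 0, and such an r includes the difference between the groups. From deviations within the groups, the 5 most alike were *Vmac*, *Zmynd19*, *H4c9*, *Sema6c* and *Mob3c* (r from 0.97 to 0.98), and their log2FC lay between -0.21 and 0.28. No gene was among both sets of 5.

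Markers of other cells in the muscle overlapped between the groups. Macrophage markers (10 genes) summed to 147 to 465 TPM in siNT and to 137 to 486 TPM in siUBA1 muscles, at 160%, 52.9%, 104% and 113% of the contralateral level in pairs 1 to 4. Endothelial markers (8 genes) summed to 140.3 to 193 and to 157 to 183 TPM. Neutrophil markers (6 genes, with *Ly6g* and *Mpo* under 0.1 TPM in every muscle) summed to 15.2 to 50.1 and to 26.4 to 59.6 TPM, higher in 3 of 4 pairs. Markers of T, B and NK cells (9 genes) summed to at most 3.72 TPM, at 143%, 37.7%, 153% and 86.6% of the contralateral level in pairs 1 to 4, and *Cd3e* and *Cd8a* were under 0.1 TPM in every muscle. Markers of fibro-adipogenic progenitors and fibroblasts (503 to 1016 and 632 to 1257 TPM) and of satellite cells (36.3 to 47.4 and 46.8 to 65.2 TPM) were higher in 4 of 4 pairs. Relative to the contralateral level, these sums and that of the myofiber markers (78.3%) were lowest in pair 2, except for the endothelial sum. The endothelial sum was lowest in pair 1 (85.1%). *Bcl3*, *Nfkbie*, *Rel*, *Rela* and *Nfkb2* were also lowest in pair 2, which holds siUBA1 replicate 2, the muscle that stood apart. No marker sum was lower in all 4 pairs, and the part of cell composition in the lower members was not tested.

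Exons of 6 of the 10 members overlap exons of genes on the opposite strand in GENCODE M39. These are single noncoding RNAs for *Rela*, *Nfkb1*, *Nfkbia* and *Bcl3*, *Psd* and a noncoding RNA for *Nfkb2*, and *Sirt2*, *Ccer2* and a noncoding RNA for *Nfkbib*. The TruSeq RNA kit that the study used does not mark strand, so reads of these 6 genes and of their partners cannot be told apart where the exons overlap. *Rel*, *Relb*, *Nfkbie* and *Nfkbiz* have no such overlap.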

How the data were processed

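Total RNA of 8 TA muscles was sequenced as 100-bp paired-end reads. The authors trimmed the reads (Phred score of 20, at least 50 bp), used CLC Genomics Workbench 20.0.4 to align them to GRCm39 and deposited 1 TPM value per gene and muscle. The annotation and the treatment of reads with several matches are not given in the sources used here. All columns were assigned to a sample.

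From the TPM, log2(TPM + 1) was computed, genes below 1 TPM in more than 4 muscles were left out, and siUBA1 was compared with siNT across all genes with limma 3.58.1 in R 4.3.3 (trend, no covariates, Benjamini-Hochberg adjustment), replacing the Kruskal-Wallis test of the study, which was run as an alternative. The test was checked on simulated data. Same-numbered muscles are the legs of a mouse, and the correlations of their deviations from the group means were -0.00037, 0.20, 0.58 and 0.54 for pairs 1 to 4, so the pair was also fitted as a block. Gene positions and the 300-base windows were read from GRCm39 with GENCODE M39. TPM keep no depth, so no counting interval is given.

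Named were all 10 members and, of each pathway list, genes called and up to 3 past the log2FC criterion. For likeness, the genes with the highest Pearson r with the member of smallest P were named, 5 each over the muscles and within groups. Members and lists were chosen with earlier results of these data known. Alternatives were a pseudocount of 0.1, no filter, a mean of 5 TPM, median-ratio and quantile scaling, TPM without mitochondrial genes, the block alone and with each scaling, an unmoderated linear model and leaving out each muscle. Leaving out each pair under the block was chosen after seeing the data.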

Additional observations from a re-analysis of the deposited data

Results flagged for a closer look

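Among the values of the 10 members, *Uba1* and the sums and ratios of members, 38 groups of 4 muscles were searched for a muscle far from the other 3. About 1.9 would be found by chance and 1 was. *Bcl3* was at 1.06 TPM in siUBA1 replicate 2, where the other 3 muscles of the group were at 1.86 to 2.00 TPM. In that muscle *Uba1* (6.77 TPM) and the sums of myofiber and macrophage markers (114631 and 137 TPM) were also lowest, and the mitochondrial share was highest, at 50.3%. The log2FC of *Bcl3* without this muscle was -0.74, with an adjusted p of 0.0433 in limma.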

How the results depend on the processing

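The cause of these changes was not tested. The number of members past the adjusted p was 0 without pairing, 1 with the replicate block (*Bcl3*), 2 with median-ratio scaling or quantile normalization (*Bcl3* and *Nfkbie*), 1 without mitochondrial genes (*Bcl3*), 4 with the block and median-ratio scaling (*Bcl3*, *Rel*, *Nfkbie* and *Rela*) and 3 with the block and quantile normalization (the same without *Rela*). It was 0 to 3 with a muscle or pair left out, 3 without siUBA1 replicate 4 (*Bcl3*, *Nfkbia* and *Nfkbiz*) and 1 without siUBA1 replicate 2 (*Bcl3*). With the block it was 2, 1, 0 and 1 without pairs 1, 2, 3 and 4. Of all genes, 118, 24, 5 and 25 were called lower and 164, 3, 2 and 2 higher in these fits. Members past the log2FC criterion numbered 4, or 2 with a mean of 5 TPM, which leaves fewer members tested, and 3 to 4 with a muscle or pair left out. The log2FC of *Nfkb1* turned to -0.025 with median-ratio scaling and to -0.040 with quantile normalization, each with or without the block. *Relb* turned without siUBA1 replicate 2 or 4 (0.0071 and 0.054) or pair 2 or 4 (0.024 and 0.069), a range of -0.14 to 0.069. The log2FC of the other 8 members stayed below 0 under every alternative run. *Uba1* passed with a mean of 5 TPM or the block (-1.98), median-ratio scaling (-2.09), quantile normalization (-2.06), TPM less mitochondrial genes (-1.996) and the block joined to either scaling (-2.09 and -2.06), and was -2.18 to -1.64 with a muscle left out. All genes passing numbered 3, then 11 (mean of 5 TPM), 23 (median-ratio), 28 (quantile), 13 (without mitochondrial genes), 57 (block), 76 (block, median-ratio), 62 (block, quantile), 0 (Kruskal-Wallis) and 2 to 39 (a muscle left out, 39 without siUBA1 replicate 4). Pathway genes passing numbered 3, then 7 with either scaling or the block, 5 without mitochondrial genes, 8 with the block and either scaling, 0 with the unmoderated model or the Kruskal-Wallis test, and 2 to 9 with a muscle left out, 9 without siUBA1 replicate 4. At the adjusted p without rescaling, no other member changed its call with the block, and *Nfkb2* passed an unadjusted P of 0.05 with it.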
